A study of Mus musculus with 6 samples.

Results

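Heat shock and chaperone genes are described here as 10 genes, listed by symbol and chosen with earlier results of these data known: the cytosolic HSP70 genes Hspa1a, Hspa1b and Hspa8, the HSP110 gene Hsph1, the J-domain genes Dnaja1 and Dnajb1, the cytosolic HSP90 genes Hsp90aa1 and Hsp90ab1, and the endoplasmic reticulum (ER) chaperone genes Hspa5 and Hsp90b1. All 10 were found in the count table and all 10 passed the filter on low counts, among 15398 genes tested. The libraries were 3 from prefrontal cortex homogenate of mice heterozygous for the 16p11.2 duplication and 3 from wild type mice, all at postnatal week 8 and on a C57BL/6 background after crosses from a mixed C57BL/6N and 129Sv line. Libraries were stranded, depleted of ribosomal RNA and made from total RNA. Whether the libraries of a genotype came from different mice is not stated in the labels, and p-values cover only the spread among these libraries, which may be technical. No treatment or heat stress is named in the labels.

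Chaperones bind unfolded proteins and help them fold or be degraded. HSP70 proteins bind and release short exposed stretches under the control of ATP, J-domain proteins start each round and HSP110 proteins end it by nucleotide exchange, and HSP90 proteins act later on receptors and kinases. Under proteotoxic stress the factor HSF1 raises transcription of the inducible members, while unfolded protein in the ER raises Hspa5 and Hsp90b1 through ATF6 and related sensors. Neurons hold large amounts of the constitutive forms, since their proteins must be kept folded in axons and synapses over long times.

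Gene names in the deposited table had slipped against the counts, and values are given after names were moved back by an offset of 0 to 6 lines. The 10 genes lay 123 to 11534 names from the nearest step of that offset. Total counts were 21872271, 14891890 and 16038828 in duplication replicates 1 to 3 and 12988457, 14369271 and 13889329 in wild type replicates 1 to 3. Most tested genes of the duplicated segment of chromosome 7 followed the labels. Of 23 tested, 22 had log2 fold changes above 0 and 1, Fam57b, below. In 19 all duplication values lay above the wild type values (11.7% of all tested genes). Summed, the 23 genes were at 4101, 5701 and 4286 CPM (counts scaled to library size, with TMM factors) in duplication replicates 1 to 3, against 2533, 2830 and 2642 CPM in wild type replicates 1 to 3. Aldoa made up most of this sum, at 2653, 3700 and 2799 CPM against 1494, 1831 and 1630 CPM. Markers of cortical neurons, such as Slc17a7 and Gad1, were present in all libraries, with 8 of 8 tested and a sum of 6938 to 7272 CPM in duplication and 6770 to 7683 CPM in wild type libraries. Markers of meningeal fibroblasts, 9 of 9 tested, all had log2 fold changes above 0, with a median of 0.75, and 0 passed over all genes. At an unadjusted p under 0.05 in edgeR 7 were higher (7.05% of all tested genes), and 4 had all duplication values above the wild type values (11.7% of all tested genes). Their sum was 34.3 to 69.6 CPM in duplication and 22.9 to 34.2 CPM in wild type libraries, and their part in the values below was not tested. On the first principal component (45.5% of variance) wild type replicate 2 stood apart from the other wild type libraries. It lay at -4.04, with duplication replicates 1 to 3 at -24.82, -17.81 and -7.23 and wild type replicates 1 and 3 at 27.22 and 26.69. Its correlation of log2 CPM (Pearson, across genes, which are not independent replicates) was 0.991 to 0.993 with the duplication libraries and 0.987 and 0.989 with wild type replicates 1 and 3. Wild type replicates 1 and 3 had 0.989 with each other, the same as replicates 2 and 3.

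Upstream sequence is shown for the inducible HSP70 pair, to show how alike it is, and for Hsph1, Hspa5 and Hsp90b1. They were chosen for the motifs they hold, and the motifs do not separate all cytosolic from the ER members. Dnaja1 and Dnajb1 also had windows, which are not printed. RefSeq windows (GRCm38.p6) were available for 7 of the 10 genes and not for Hspa8, Hsp90aa1 and Hsp90ab1. The 250 bases before the annotated start are printed 5′ to 3′ on the strand of the gene, for Hspa1a at chr17:34972157-34972406 and Hspa1b at chr17:34959239-34959488 (both minus strand), Hsph1 at chr5:149636337-149636586 (minus strand), Hspa5 at chr2:34771840-34772089 (plus strand) and Hsp90b1 at chr10:86705445-86705694 (minus strand). Capitals mark paired heat shock units in Hspa1a, Hspa1b and Hsph1 and ER stress elements in Hspa5 and Hsp90b1.
Hspa1a: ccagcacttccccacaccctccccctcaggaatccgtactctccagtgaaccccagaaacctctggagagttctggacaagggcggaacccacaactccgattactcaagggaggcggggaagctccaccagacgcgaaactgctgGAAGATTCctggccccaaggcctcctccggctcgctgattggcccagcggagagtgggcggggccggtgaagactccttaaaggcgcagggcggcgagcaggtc
Hspa1b: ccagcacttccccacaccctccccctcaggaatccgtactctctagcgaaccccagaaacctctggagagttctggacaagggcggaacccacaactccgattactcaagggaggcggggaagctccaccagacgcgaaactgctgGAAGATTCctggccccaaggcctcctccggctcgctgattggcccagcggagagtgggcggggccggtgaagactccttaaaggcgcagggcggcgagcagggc
Hsph1: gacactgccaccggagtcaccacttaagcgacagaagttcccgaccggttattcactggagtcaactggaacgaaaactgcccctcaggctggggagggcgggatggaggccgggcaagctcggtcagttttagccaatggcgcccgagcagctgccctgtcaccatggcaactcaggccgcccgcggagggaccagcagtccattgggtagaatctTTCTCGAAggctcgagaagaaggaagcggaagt
Hspa5: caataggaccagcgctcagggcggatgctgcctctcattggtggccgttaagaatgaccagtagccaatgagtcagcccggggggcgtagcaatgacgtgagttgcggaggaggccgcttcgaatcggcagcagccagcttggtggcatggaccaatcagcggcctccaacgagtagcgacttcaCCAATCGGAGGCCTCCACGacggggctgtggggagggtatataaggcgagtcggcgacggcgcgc
Hsp90b1: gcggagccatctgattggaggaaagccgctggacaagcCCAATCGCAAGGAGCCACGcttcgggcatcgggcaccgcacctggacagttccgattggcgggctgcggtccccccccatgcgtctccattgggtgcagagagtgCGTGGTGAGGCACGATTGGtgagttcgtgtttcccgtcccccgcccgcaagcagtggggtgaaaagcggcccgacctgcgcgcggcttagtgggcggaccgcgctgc

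Motifs were searched on both strands in windows of 250 bases before and 50 bases after the start. The paired heat shock unit GAANNTTC was found at -104 in both Hspa1a and Hspa1b, and also in Dnaja1 and Hsph1, so in at least 1 window of 4 of 7 genes, against 9.04% of 27025 RefSeq genes and 7.86% of their 32851 promoters. The other paired form, TTCNNGAA, was found in Hsph1 (9.60% of genes). Neither form was found in Dnajb1, and Dnaja1 did not hold GAANNTTC in all its windows. A run of 3 alternating units with 2 bases between them, which holds both paired forms, was found in Hsph1 alone of the 7, downstream of the start (0.66% of genes). The ER stress element, CCAAT followed after 9 bases by CCACG, was found once in Hspa5, at -65, and at 2 places in Hsp90b1, at -212 and at -107, against 0.14% of genes. TATAAA was found in 0 of 7 (15.7% of genes) and CCAAT in 7 of 7 (41.1%), which is also part of each ER stress element. The matches describe these letters only.

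No difference between duplication and wild type cortex was detected in any of the 10 genes. Their log2 fold changes ran from -0.21 for Hsph1 to 0.22 for Hspa1a, 7 were above 0 and 3 below, and the median was 0.11, beside 0.0050 over all tested genes. With edgeR's quasi-likelihood test, 0 of 10 passed at a Benjamini-Hochberg adjusted p under 0.05, where 0% of all tested genes did. The 23 tested genes of the duplicated segment had 0 passing too, so this threshold did not call a known difference in copy number either. At an unadjusted p under 0.05, 0 of 10 were higher (7.05% of all genes) and 1 of 10, Hsph1, was lower (12.2% of all genes). The 3 duplication values lay above all wild type values in 0 of 10 (11.7% of all genes) and below them in 1 of 10, again Hsph1 (10.5% of all genes). DESeq2 and limma-voom also called 0 of 10. Over all genes DESeq2 called 46 higher and 239 lower (2.01% of those given an adjusted p) and limma-voom 0. In homogenate, fewer cells of a type and less RNA per cell cannot be told apart.

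**Figure D1:**
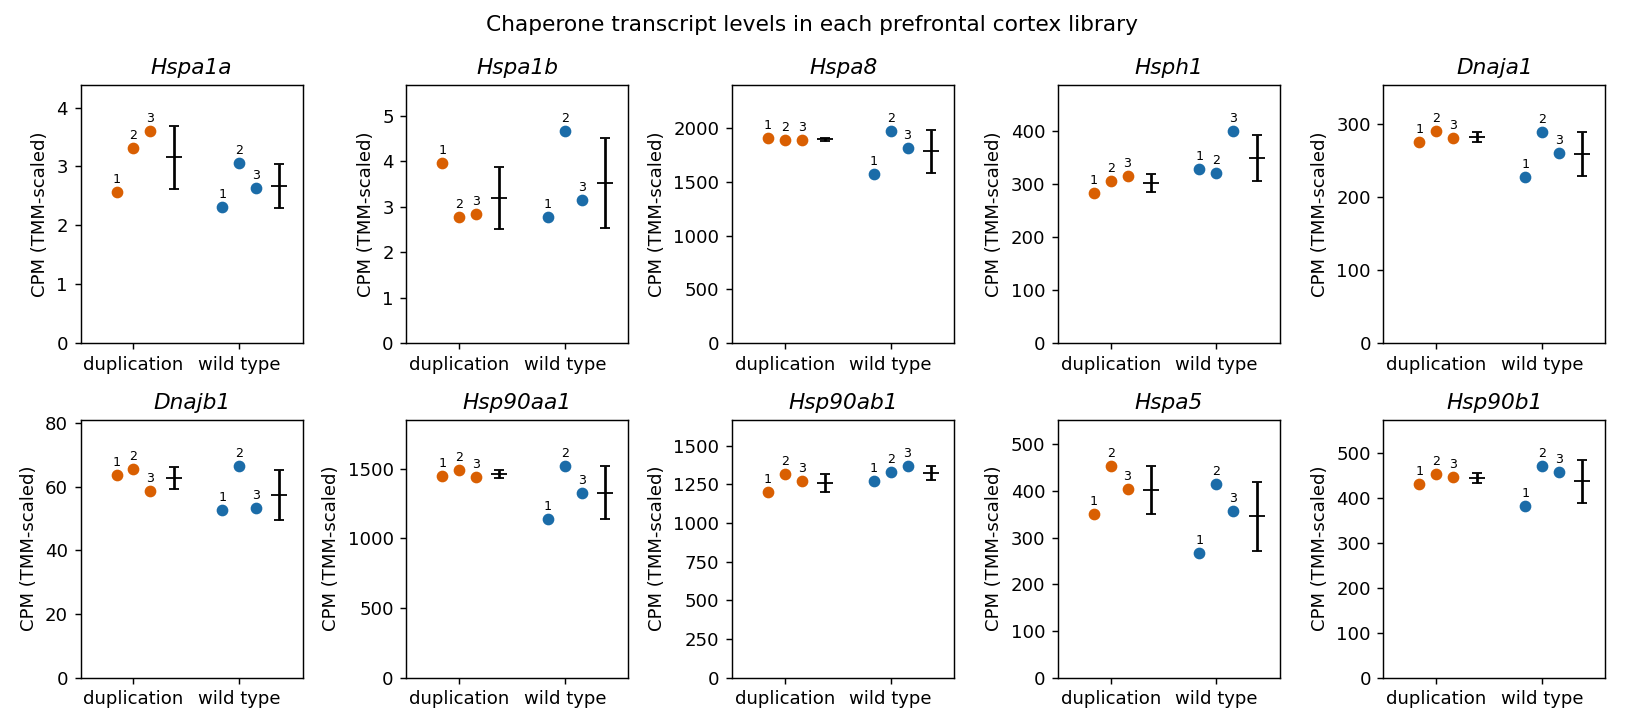
TMM-scaled CPM of the 10 genes (vertical axes, from 0) in the 3 duplication libraries (orange) and the 3 wild type libraries (blue), numbered by replicate, with mean and SD beside them. The groups overlap for every gene but Hsph1, and wild type replicate 1 is the lowest library for 7 of the 10.

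The inducible HSP70 genes had few counts in every library, and how reads shared by the pair were counted is not known. Hspa1a and Hspa1b are near copies on chromosome 17 (34969190 to 34972156 and 34956436 to 34959238, mm10), which encode the HSP70 proteins made in large amounts after heat or other stress. Hspa1a had 56, 49 and 57 counts in duplication and 29, 44 and 36 in wild type replicates 1 to 3, which is 2.56, 3.31 and 3.59 CPM against 2.30, 3.06 and 2.64 CPM. Hspa1b had 87, 41 and 45 counts in duplication and 35, 67 and 43 in wild type replicates 1 to 3, which is 3.98, 2.77 and 2.84 CPM against 2.78, 4.66 and 3.15 CPM. The groups overlapped for both genes, and the library with the highest Hspa1b was wild type replicate 2. The log2 fold changes were 0.22 ± 0.20 for Hspa1a and -0.13 ± 0.23 for Hspa1b (± SE, edgeR adjusted p of 0.556 and 0.785).

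The 2 genes cannot be counted apart over most of their length. Their coding sequences are identical at 1915 of 1923 aligned bases (99.6%) and their upstream windows at 247 of 250. Of the 50-base words in the transcript of Hspa1a 66.3% also occur in a transcript of another gene, mainly Hspa1b, and 62.3% of those of Hspa1b. Gm10501 shares 232 words with Hspa1a and 187 with Hspa1b, on either strand. It held 485 counts in the duplication and 353 in the wild type libraries, against 162 and 109 for Hspa1a and 173 and 145 for Hspa1b. The handling of reads that map to more than 1 of these genes is not stated in the labels. The level of each gene is uncertain, and so is that of the pair summed. Hspa1a also overlaps 564 exonic bases of Gm20481 on the opposite strand. Summed, the pair had 6.53, 6.09 and 6.43 CPM in duplication replicates 1 to 3, against 5.08, 7.72 and 5.79 CPM in wild type replicates 1 to 3. The sum was at a log2 fold change of 0.03 ± 0.16 (95% interval -0.33 to 0.39, edgeR adjusted p = 0.933).

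Hspa8 and its co-chaperones made up the constitutive HSP70 cycle at far higher levels. Hspa8 encodes the constitutive HSP70 protein HSC70, which also strips clathrin from synaptic vesicles (chromosome 9, 40800984 to 40810087). It was at 1914, 1889 and 1895 CPM in duplication replicates 1 to 3, against 1572, 1972 and 1819 CPM in wild type replicates 1 to 3. All 3 duplication values lay within the range of the wild type libraries, and the log2 fold change was 0.09 ± 0.08, with a 95% interval for the fold of 0.938 to 1.20. Of its 50-base words 74.8% occur in transcripts of other genes, mostly processed copies, and the copy with the most, Gm15459, held 1768 counts in the duplication and 1380 in the wild type libraries, against 99895 and 72961 for Hspa8.

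Dnaja1, a J-domain partner of HSC70 (chromosome 4, 40722150 to 40737149, overlapping Smu1 on the opposite strand by 608 exonic bases), was at 275, 289 and 281 CPM in duplication replicates 1 to 3, against 227, 288 and 260 CPM in wild type replicates 1 to 3. Its log2 fold change was 0.13 ± 0.08 and its level followed that of Hspa8 closely. The ratio of Dnaja1 to Hspa8 within a library, chosen after the values were seen and not tested, was 0.144, 0.153 and 0.148 in duplication and 0.145, 0.146 and 0.143 in wild type replicates 1 to 3. Dnajb1, the J-domain protein HSP40 that is induced with HSP70 (chromosome 8, 83608193 to 83612653), was at 63.6, 65.4 and 58.7 CPM in duplication replicates 1 to 3, against 52.5, 66.4 and 53.2 CPM in wild type replicates 1 to 3. All its duplication values again lay within the wild type range, with a log2 fold change of 0.12 ± 0.10.

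Hsph1 stood on the other side. It encodes HSP105, the nucleotide exchange factor that ends the HSP70 cycle (chromosome 5, 149614287 to 149636376). It was at 282, 306 and 314 CPM in duplication replicates 1 to 3, against 328, 320 and 399 CPM in wild type replicates 1 to 3. It was the only one of the 10 whose groups did not overlap, and the gap between the highest duplication and the lowest wild type library was narrow. The log2 fold change was -0.21 ± 0.09, a fold of 0.862 with a 95% interval of 0.748 to 0.992 (edgeR unadjusted p = 0.0404, adjusted p = 0.242). None of its 50-base words occurs in another gene. The log2 fold change was -0.11 without wild type replicate 3, the highest library, with an adjusted p of 0.558. It was 0.04 in a model that took in a library covariate, the level of TEC transcripts described further on. That covariate and genotype cannot be told apart in these libraries.

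The ratio of Hsph1 to Hspa8 was computed after the values were seen and was given no test. It was 0.147, 0.162 and 0.166 in duplication replicates 1 to 3, against 0.209, 0.162 and 0.219 in wild type replicates 1 to 3. Wild type replicate 2 lay within the duplication range, and the other wild type libraries above it.

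The cytosolic HSP90 paralogs lay on opposite sides of 0. Hsp90aa1 encodes the stress-responsive form HSP90 alpha (chromosome 12, 110690605 to 110702728) and was at 1450, 1492 and 1437 CPM in duplication replicates 1 to 3, against 1138, 1518 and 1324 CPM in wild type replicates 1 to 3. Its duplication values lay within the wild type range, and its log2 fold change was 0.14 ± 0.09 (95% interval -0.07 to 0.35). Hsp90ab1 encodes the constitutive form HSP90 beta (chromosome 17, 45567775 to 45573271) and was at 1198, 1315 and 1271 CPM in duplication replicates 1 to 3, against 1273, 1332 and 1368 CPM in wild type replicates 1 to 3. It was the steadiest of the 10 across wild type libraries, with a log2 fold change of -0.07 ± 0.06 (95% interval -0.20 to 0.06). The coding sequences are 76.6% identical over aligned bases. Of the 50-base words of Hsp90aa1 58.5% occur in other genes, mainly the processed copy Gm12346 with 435 counts in duplication and 264 in wild type libraries, against 4.5% of those of Hsp90ab1.

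Within a library, the ratio of Hsp90aa1 to Hsp90ab1 does not depend on scaling between libraries. It was 1.21, 1.135 and 1.13 in duplication replicates 1 to 3, against 0.894, 1.139 and 0.968 in wild type replicates 1 to 3. The SD was 0.045 in duplication and 0.126 in wild type libraries, and the log2 difference of means was 0.22, which did not pass the test (n = 3 each, exact two-sided permutation test, p = 0.3, adjusted over 3 ratios 0.45). The ratio of Hspa5 to Hsp90b1 was 0.903 ± 0.093 in duplication and 0.783 ± 0.091 in wild type libraries (exact permutation test, p = 0.2, adjusted 0.45, n = 3 each). That of the Hspa1a and Hspa1b sum to Hspa8 was 0.00334 ± 0.00011 in duplication and 0.00344 ± 0.00041 in wild type libraries (exact permutation test, p = 0.9, adjusted 0.9, n = 3 each). With 3 libraries against 3, the smallest p this test can give is 0.1.

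**Figure D2:**
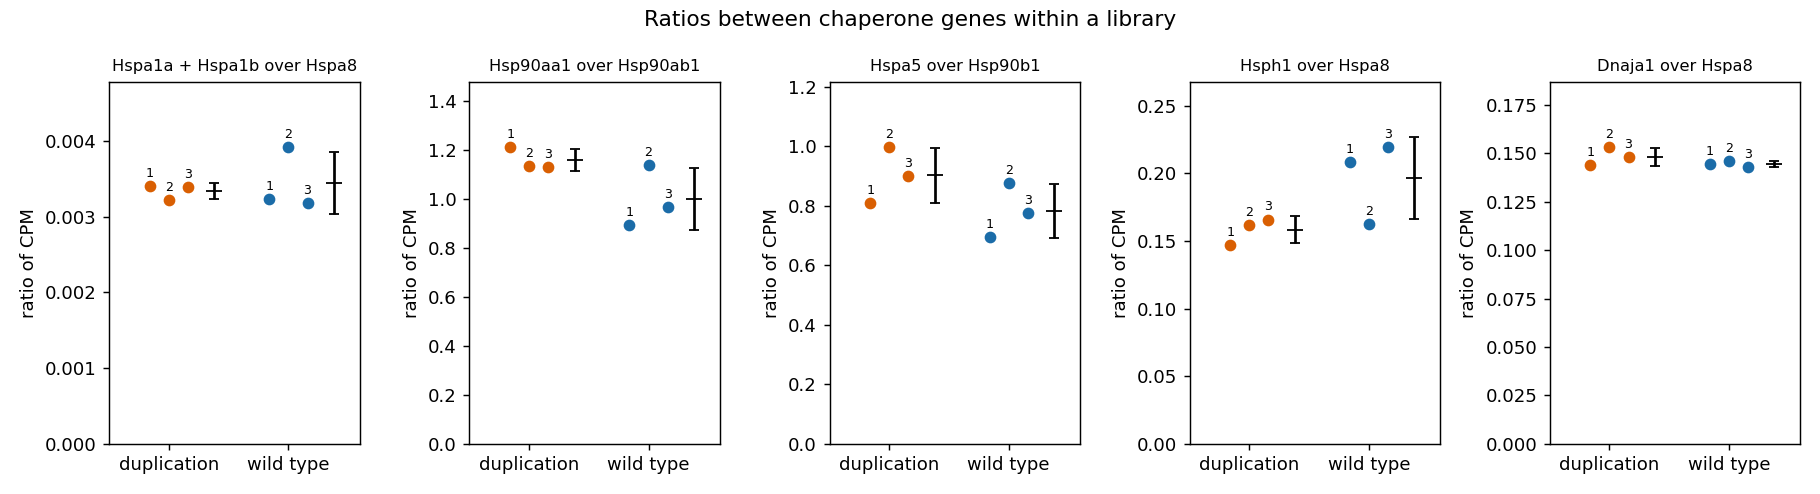
Ratios of CPM between chaperone genes within each library (vertical axes, from 0), duplication libraries in orange and wild type libraries in blue, numbered by replicate, with mean and SD. Hsp90aa1 over Hsp90ab1 and Hsph1 over Hspa8 place wild type replicate 2 at the level of the duplication libraries, while Dnaja1 over Hspa8 stays between 0.143 and 0.153 in all 6.

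Of the ER pair, Hspa5 varied more between libraries than Hsp90b1. Hspa5 encodes BiP, the HSP70 protein of the ER and a sensor of unfolded protein there (chromosome 2, 34771970 to 34777547). It was at 350, 453 and 403 CPM in duplication replicates 1 to 3, against 266, 414 and 356 CPM in wild type replicates 1 to 3. Duplication replicate 2 was the highest and wild type replicate 1 the lowest library, and the groups overlapped. The log2 fold change was 0.22 ± 0.15, and the 95% interval of the fold, 0.920 to 1.47, was wider than that of any other gene of the 10 but Hspa1a and Hspa1b. No 50-base word of Hspa5 occurs in another gene. Hsp90b1 encodes GRP94, the HSP90 protein of the ER (chromosome 10, 86690209 to 86705509), and was at 432, 455 and 447 CPM in duplication replicates 1 to 3, against 382, 472 and 460 CPM in wild type replicates 1 to 3. Its log2 fold change was 0.02 ± 0.08 (95% interval -0.16 to 0.21). Its exons overlap 415 bases of 1810014B01Rik on the opposite strand.

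**Figure D3:**
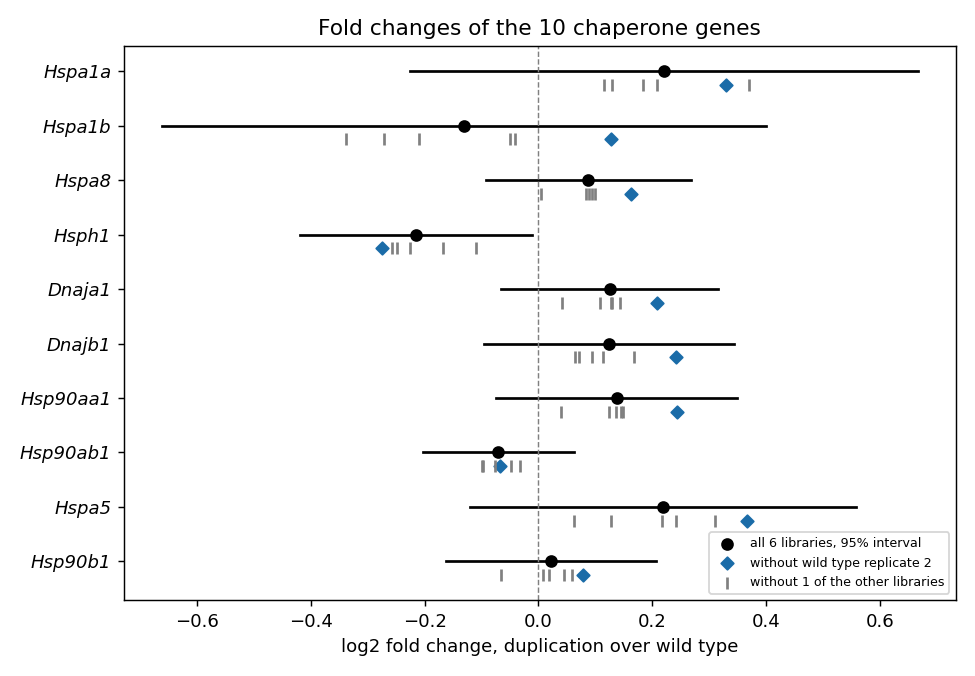
Log2 fold change of duplication over wild type for the 10 genes (horizontal axis), from all 6 libraries with its 95% interval (black), without wild type replicate 2 (blue diamonds) and without each other library (grey ticks). The interval of Hsph1, -0.42 to -0.01, is the only one that leaves out 0.

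Per kilobase of merged exons, the cytosolic HSP90 and constitutive HSP70 genes were the most abundant. Averaged over all 6 libraries, Hsp90ab1 was at 431, Hspa8 at 429 and Hsp90aa1 at 354 CPM per kilobase, and neighbours in this order overlapped in their ranges. Hsp90b1 at 109 and Hspa5 at 88.4 CPM per kilobase came next and also overlapped each other. The order of the first 3 is uncertain, since more of the sequence of Hspa8 and Hsp90aa1 than of Hsp90ab1 is shared with other genes and the counting of shared reads is not known. Hsph1 at 44.7, Dnaja1 at 31.3 and Dnajb1 at 18.7 CPM per kilobase did not overlap their neighbours. Hspa1b at 1.20 and Hspa1a at 0.981 CPM per kilobase were lowest and overlapped. With the length of 1 transcript per gene in place of merged exons, Hspa8 was first at 770 CPM per kilobase and no longer overlapped Hsp90ab1 at 513.

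The lowest and highest values came largely from a pair of wild type libraries. Wild type replicate 1 was the lowest of the 6 libraries for 7 of the 10 genes (24.6% of all tested genes were lowest there), the exceptions being Hspa1b, Hsp90ab1 and Hsph1. Wild type replicate 2 was the highest for 5 of the 10, Hspa1b, Hspa8, Hsp90aa1, Dnajb1 and Hsp90b1 (13.2% of all tested genes). The ratio of wild type replicate 2 to replicate 1 was 1.555 for Hspa5, 1.333 for Hsp90aa1 and 1.255 for Hspa8. The SD of log2 CPM was wider in wild type than in duplication libraries for 8 of the 10, as it was for 67.8% of all tested genes. For Hspa8 it was 0.0098 in duplication and 0.17 in wild type libraries.

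TEC transcripts (unspliced EST clusters) together with sense intronic ones also differed between the same libraries. Averaged over 292 such genes around the mean of the libraries, it was -0.44, -0.43 and -0.12 in duplication replicates 1 to 3, against 0.47, -0.0004 and 0.53 in wild type replicates 1 to 3, on the log2 scale. Among wild type libraries, replicate 2 had the lowest such level and the highest value of each of the 10 genes but Hsp90ab1 and Hsph1. Wild type replicates 1 and 3 had similar levels, yet Hspa8 was at 1572 and 1819 CPM and Hspa5 at 266 and 356 CPM in them. What links this level to the genes was not tested. With this level as a covariate in edgeR, Hspa8, Hsp90aa1, Dnaja1, Dnajb1, Hspa5 and Hsp90b1 turned to negative and Hsph1 to a positive log2 value, and 0 of 10 passed. Hspa1b was then at -0.89 and Dnajb1 at -0.26, both with an unadjusted p under 0.05 (adjusted p = 0.9997 each). The median of the 10 was then -0.10. Over all tested genes, 230 were then higher and 213 lower at an unadjusted p under 0.05, against 1086 and 1877 without the covariate. The level was lower in every duplication than in every wild type library, so this model cannot tell it apart from genotype.

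**Figure D4:**
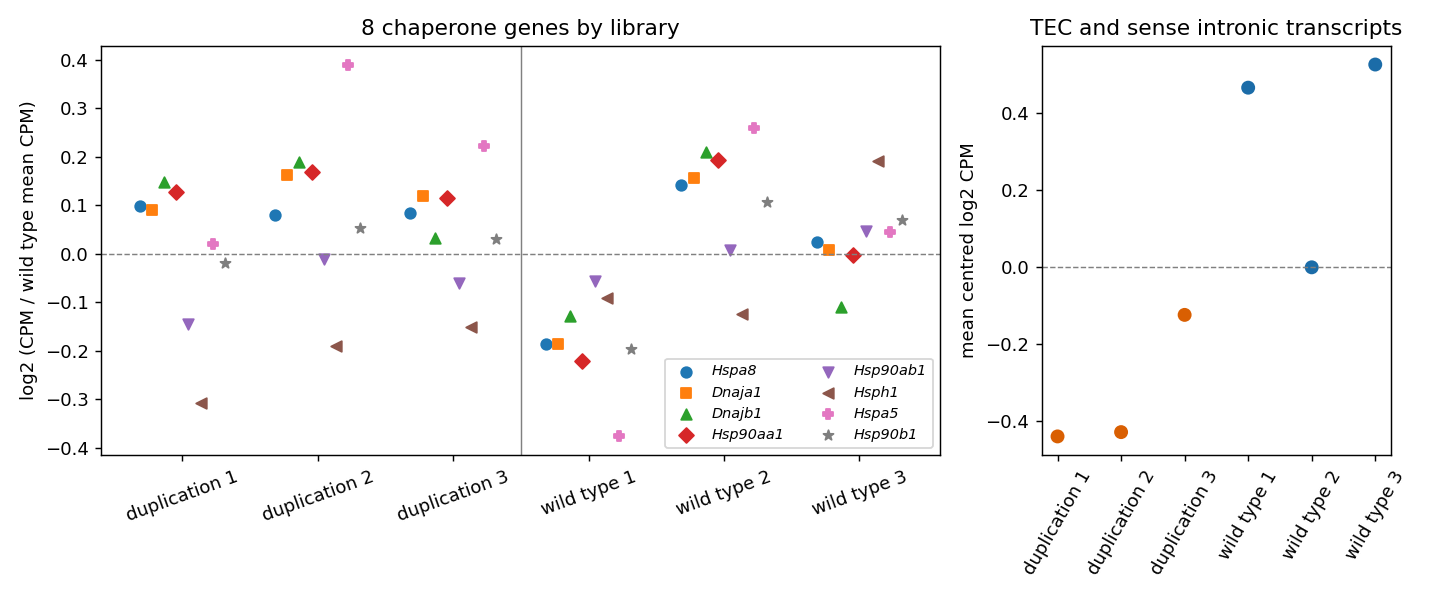
Left, log2 ratio of CPM to the wild type mean for the 8 genes with more than a few counts in each library. Right, the mean centred log2 CPM of TEC and sense intronic transcripts, with duplication in orange and wild type in blue, where wild type replicate 2 lies at -0.0004 between the other wild type libraries and the duplication libraries.

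Without wild type replicate 2, 2 of the 10 genes passed over all genes, both higher in the duplication libraries, where 4.65% of 15712 genes did so. They were Hsp90aa1, with a log2 fold change of 0.24 (edgeR adjusted p = 0.0410), and Dnajb1, also at 0.24 (adjusted p = 0.0422). Without any other single library 0 of 10 passed.

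Other chaperone and stress response genes were read in 9 lists chosen by function. Of 132 such genes tested, 97 had log2 fold changes above 0 and 35 below, against 7849 and 7549 of all tested genes, and the median was 0.07. Values ran from -0.60 for Syvn1 to 0.48 for Hspb3. With edgeR 0 of 132 passed over all genes (smallest adjusted p = 0.174), while 9 higher and 6 lower had an unadjusted p under 0.05, which is 6.82% and 4.55% of them, against 7.05% and 12.2% of all tested genes. In each list the 2 genes with the highest mean CPM and the gene with the smallest p are named, and the others named below were chosen after their values were seen.

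All 14 tested genes of the chaperonin TRiC, which folds actin and tubulin, and of its partner prefoldin had log2 fold changes above 0, with a median of 0.15. In 4 of the 14 the groups did not overlap, all of them TRiC subunits with the duplication values above (11.7% of all tested genes). Tcp1 was at 235 ± 4 CPM in duplication and 209 ± 25 CPM in wild type libraries (SD, n = 3 each), and the log2 fold changes were 0.17 for Tcp1, 0.16 for Cct8 and 0.16 ± 0.06 for Cct2. The summed level of the list was 1723 to 1761 CPM in duplication and 1442, 1728 and 1572 CPM in wild type replicates 1 to 3, so wild type replicate 2 again lay at the level of the duplication libraries. Without wild type replicate 1 the median was 0.08, and with the TEC covariate it was -0.04. Without wild type replicate 2, 7 of the 14 passed as higher, where 4.65% of all tested genes did and 10.7% passed as lower. In that setting 1 higher and 3 lower passed in the J-domain list, 3 and 1 among co-chaperones, 3 and 2 in the unfolded protein response list, 1 and 0 among mitochondrial chaperones and 1 and 0 among other HSP70 and HSP110 genes. None passed in the other 3 lists.

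Co-chaperones and J-domain proteins other than the 10 genes had medians of 0.06 each, over 25 and 23 tested genes. St13, the HIP protein that stabilizes HSP70 on its substrate, was at 224 ± 4 CPM in duplication and 199 ± 11 CPM in wild type libraries (log2 fold change 0.17), and Stip1, the HOP adaptor between HSP70 and HSP90, was at 0.06. Bag5, a nucleotide exchange factor of HSP70, had the smallest p of its list, at 56.3 ± 2.0 CPM in duplication and 47.2 ± 2.9 CPM in wild type libraries, with a log2 fold change of 0.26 ± 0.07 (edgeR adjusted p = 0.174). Among J-domain proteins, the auxilin gene Dnajc6 was at 0.09, the synaptic vesicle protein gene Dnajc5 at 0.06 and Dnaja2, a cytosolic relative of Dnaja1, at 0.17 ± 0.06. The duplication values lay above all wild type values for 6 J-domain genes and 7 co-chaperones (11.7% of all tested genes), Dnajc6, Dnajc5, Dnaja2, St13 and Bag5 among them. They lay below for 3 J-domain genes, Dnajb2, Dnajb5 and Dnajc13, and for 0 co-chaperones (10.5% of all tested genes), and none of these passed.

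Of the ER folding enzymes (median 0.07, 23 tested), the lectin chaperones Canx and Calr were at 0.08 and 0.05, and Dnajb9, a J-domain partner of BiP, at 0.20 ± 0.08. In the unfolded protein response list (median 0.06, 18 tested, 10 above 0 and 8 below), 2 genes were higher and 2 lower at an unadjusted p under 0.05. Herpud1, a component of ER-associated degradation, was at 48.7 ± 2.0 CPM in duplication and 40.7 ± 2.2 CPM in wild type libraries, a log2 fold change of 0.26 ± 0.07 (edgeR adjusted p = 0.174). Atf6, the ER sensor, was at 0.09 and Sel1l, of the degradation complex, at -0.06. Syvn1, the ubiquitin ligase of that complex, was at 8.36, 10.4 and 12.55 CPM in duplication and 20.6, 10.2 and 16.7 CPM in wild type replicates 1 to 3, and its groups overlapped (log2 fold change -0.60 ± 0.24, edgeR adjusted p = 0.228). Ern1, the ER sensor IRE1 alpha, was at 7.72, 8.65 and 8.64 CPM in duplication and 12.4, 8.84 and 11.8 CPM in wild type replicates 1 to 3, with all duplication values below (log2 fold change -0.40 ± 0.14, adjusted p = 0.193). Mitochondrial chaperones (median 0.05, 12 tested) included Hspa9 at 0.08, Hspd1 at 0.09 and Hspe1 at 0.17.

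The heat shock factor list (median -0.02, 5 tested) included Hsf2 at 0.15 ± 0.07, whose groups did not overlap, and the small HSF1-binding protein gene Hsbp1 at 0.12. Hsf1 itself was at 13.98, 14.9 and 14.3 CPM in duplication and 13.1, 14.96 and 15.8 CPM in wild type replicates 1 to 3, a value looked up after the others because of its role. Other HSP70 and HSP110 genes (median 0.05, 7 of 8 tested) included Hspa4 at 0.01, Hspa12a at -0.06 and Hspa13 at 0.17. Among small heat shock proteins (median 0.08, 6 of 10 tested), Cryab, which oligodendrocytes express strongly, was at -0.18 ± 0.19, Hspb8 at 0.09 and Hspb3 at 0.48 ± 0.22. Oligodendrocyte markers, 6 of 6 tested, summed to 1604, 1191 and 1395 CPM in duplication and 1330, 1636 and 2290 CPM in wild type replicates 1 to 3, and Cryab was at 24.8, 22.5 and 24.6 CPM in duplication, against 18.02, 29.6 and 33.7 CPM in wild type replicates 1 to 3. Their part in the value of Cryab was not tested.

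**Figure D5:**
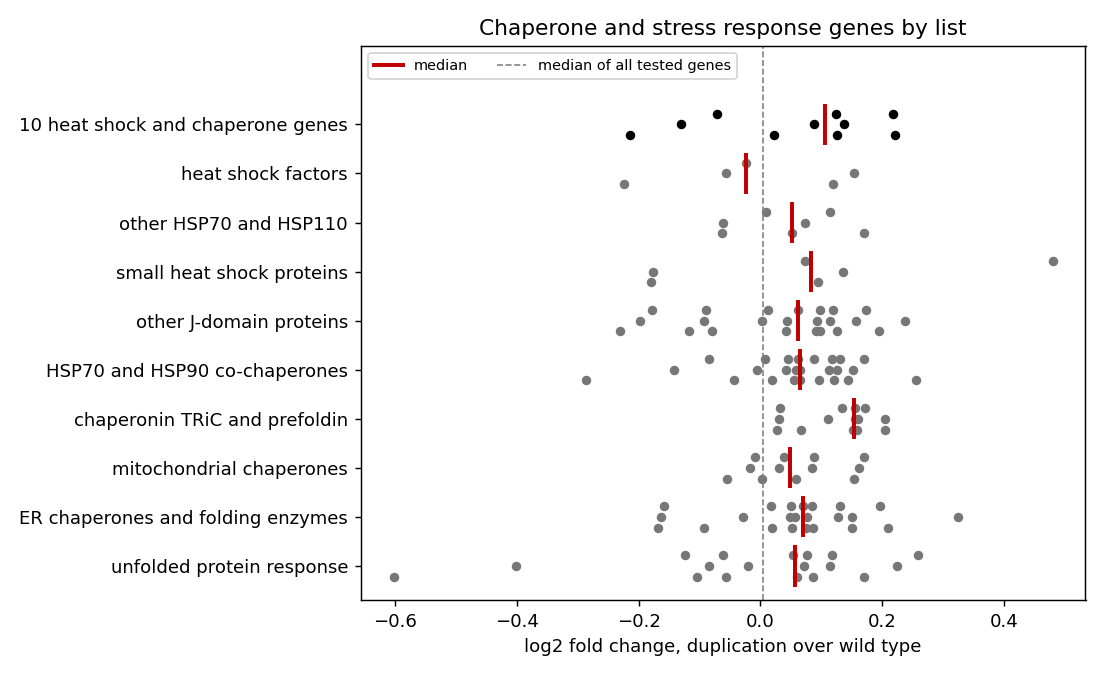
Log2 fold change of duplication over wild type (horizontal axis) for the 10 genes (black) and the genes of 9 other chaperone and stress response lists (grey), 1 point per gene, with the median of each list (red) and that of all tested genes (dashed line). The TRiC and prefoldin list has the highest median, 0.15, with all 14 points above 0.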

How the data were processed

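Prefrontal cortex RNA was measured in 6 libraries, 3 per genotype. Per the labels' protocols, extraction used Trizol and the libraries a stranded TruSeq kit for total RNA with Ribo-zero depletion; cutadapt, TopHat2, HTSeq and mm10 are named in the submitters' processing notes. Annotation, strand setting and the treatment of multiply mapped reads are not stated there. The deposited values are the authors' raw counts, one per gene and not normalized, in a joint table of 45807 lines with 45801 names and in 1 table per library, whose named values were equal to the joint table in all 6.

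Names were moved against counts by an offset of 0 to 6 lines in 6 steps, and names within 25 lines of a step and 25 names turned into serial numbers were left out. This left 45470 names, 64.9% of them with an offset above 0. Lines without a name held 0.909% to 0.954% of counts and stayed out of library sizes. Counting error matters mainly for Hspa1a and Hspa1b, the members with few counts.

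Genotypes were compared in R 4.3.3 by edgeR 4.0.16 (TMM factors, filterByExpr by group, quasi-likelihood F-test, Benjamini-Hochberg over all 15398 tested genes, threshold 0.05). Standard errors were derived from the F statistic. Log2 CPM used a prior count of 2 for the principal component, the correlations and the TEC level. The SDs of log2 CPM used a fixed constant added to CPM instead. Log2 ratios to the wild type mean used no prior. DESeq2 1.42.0, limma 3.58.1 (voom), other scalings and filters, single libraries left out and the replicate number as a block were alternatives. The edgeR script was tested on simulated data. Ratios within a library were compared by an exact two-sided permutation test. Positions and exon lengths came from GENCODE M21 (same build, 91.8% of names found), promoters from RefSeq. Named from the other lists were the 2 genes of highest mean CPM and that of smallest p. The members and lists were chosen with earlier results of these data known.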

Additional observations from a re-analysis of the deposited data

How the results depend on the processing

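Of the 10 genes, Hsp90aa1 and Dnajb1 passed the threshold without wild type replicate 2, and no gene passed under any other alternative in which it could be tested. Leaving out 1 library at a time, the number of genes passing as higher was 0 to 2 and as lower 0. The number higher at an unadjusted p under 0.05 was 0 to 5 and lower 0 to 1. Over all tested genes 502 to 2164 were higher and 1061 to 2823 lower, the most without wild type replicate 2, where 15712 were tested. The number with groups apart was 0 to 4 above and 1 to 3 below. Above, this held for 14.8% to 24.5% of all tested genes, the most again without wild type replicate 2. The share below was not computed in these settings, so the 1 to 3 genes below cannot be read against it. Groups are apart more often with fewer libraries. Without 1 library the log2 fold change of Hsp90b1 ran from -0.066 (without wild type replicate 1) to 0.078 and that of Hspa1b from -0.34 to 0.13 (without wild type replicate 2), and the log2 difference of the Hspa1a and Hspa1b to Hspa8 ratio ran from -0.091 to 0.059, positive without wild type replicate 2. The median of the 10 ran from 0.02 to 0.19, the log2 difference of the Hsp90aa1 to Hsp90ab1 ratio from 0.14 to 0.32 and that of the Hspa5 to Hsp90b1 ratio from 0.12 to 0.29. With upper-quartile factors 0 of the 10 were lower at an unadjusted p under 0.05, where 1624 of 15398 tested genes were. With no filter 1 was higher, where 1423 of 26418 tested genes were. With the TEC and sense intronic covariate 2, Hspa1b and Dnajb1, were lower, where 213 of 15398 tested genes were. The log2 values with it were -0.89 for Hspa1b, -0.10 for Hspa8, -0.14 for Hsp90aa1, 0.043 for Hsph1, -0.087 for Dnaja1, -0.26 for Dnajb1, -0.11 for Hspa5 and -0.10 for Hsp90b1, with a median of -0.10. That covariate was lower in every duplication than in every wild type library, so it cannot be told apart from genotype. Summing Hspa1a and Hspa1b gave 0.031, against -0.13 for Hspa1b alone. With names as deposited, where 7 of the 10 could be tested, the values were -0.13 for Hspa1a, 0.12 for Hsp90ab1 and 0.38 for Hsph1. In that setting 0 of 7 were lower at an unadjusted p under 0.05, where 1885 of 15504 tested genes were. Groups were apart above in 2 (11.7% of all tested genes) and below in 0. Names with an offset above 0 then sat on the counts of other lines. The cause of these changes was not tested in any setting.

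Same-numbered duplication and wild type libraries had correlations of deviations from the group mean of 0.102, 0.063 and 0.311, so the numbers were not taken as pairs. With the replicate block, 1 gene, Hspa5, was higher and 1, Hsph1, lower at an unadjusted p under 0.05, and 0 passed. Of 15398 tested genes, 971 were higher and 1830 lower at that unadjusted p. Over all genes, edgeR called 0, DESeq2 called 46 higher and 239 lower, edgeR with no filter called 173 higher and 843 lower, with the replicate block 6 higher and 1 lower, and without wild type replicate 2 called 730 higher and 1676 lower. Depth limits Hspa1a and Hspa1b, with 29 to 87 counts per library. Groups of 3 are too small for a test of outlying libraries.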
